A study of Mus musculus with 6 samples.

Results

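Kupffer cells are the resident macrophages of the liver, and 10 genes that mark them were followed here in bulk liver RNA: Clec4f, Cd5l, Fcna, Folr2, Csf1r, C1qa, C1qb, C1qc, Vsig4 and Timd4. They were picked by gene symbol as markers of the resident liver macrophage and are 10 of the 15953 genes in the deposited table. RNA sequencing had been done on 3 livers of Cgref1 knockout mice (Cgref1 KO) and 3 livers of wild type mice, all of the C57BL/6 strain. No age, sex, treatment or position of the deletion is given in the sources used here. The labels number the livers of a group as biological replicates without naming the animals, so p-values measure the spread between these samples. The design sets Cgref1 KO livers against wild type livers.

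Kupffer cells sit in the sinusoids, where they take up particles, dying cells and complement-coated material from portal blood. They depend on signalling through the receptor encoded by Csf1r, and resident Kupffer cells of the mouse are told apart from newly arrived monocytes by genes such as Clec4f, Vsig4 and Timd4. They are also a main source of complement C1q, whose 3 chains start the classical pathway. The transcription factor PU.1, encoded by Spi1, opens many macrophage genes, and MAF family factors act beside it.

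Library totals ran from 17627734 to 18366443 estimated counts. Cgref1 itself had 7, 12 and 10 counts in the knockout-labelled libraries and 7, 7 and 19 counts in the wild type libraries, with a log2 fold change of -0.11 (SE 0.50), so the genotype rests on the labels and the direction given below is that of knockout-labelled over wild type libraries. Hepatocytes are the labelled cell type and liver the labelled tissue. The 15 hepatocyte markers summed to 104463 to 129886 CPM (counts scaled to a common library size) in knockout-labelled and 102220 to 136109 CPM in wild type libraries. Markers of other liver cells were present in every library, with 14 sinusoidal endothelial genes at 512 to 531 CPM in knockout-labelled and 445 to 544 CPM in wild type libraries. The 10 Kupffer markers summed to 381, 408 and 389 CPM in the knockout-labelled libraries and to 302.5, 328 and 336 CPM in the wild type libraries. In such bulk RNA, fewer cells of a type and less RNA per cell cannot be told apart. Wild type replicate 1 held the lowest value of 6 of the 10 markers. The same library had the lowest sum of the sinusoidal endothelial genes (445 CPM) and the highest sum of the hepatocyte genes (136109 CPM).

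The promoter windows of several markers are shown because PU.1 acts on macrophage genes. Windows of 250 bases before the start of transcription (RefSeq, GRCm38) were found for Clec4f, Cd5l, Fcna, Folr2 with 2 starts, C1qb, C1qc, Vsig4 and Timd4, which makes 8 of the 10 members. The letters GAGGAA, the core of the PU.1 box, were searched on both strands (TTCCTC is the other strand). They stood in 5 of the 9 windows, from 5 of 8 members, against 23.3% of 32851 windows of the same length in the promoter table. The letters TGCTGA, part of the MAF recognition element, were also searched on both strands (TCAGCA). They stood in 7 of the 9 windows, from 6 of 8 members, against 16.1% of all windows. No match of one motif overlapped a match of the other in the members' windows (0 overlaps). A match of letters is a description and does not show binding. Whether the matches go with the change between the groups was not tested.

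Below, C1qb (chr4:136886201-136886450) and C1qc (chr4:136892915-136893164) are shown as neighbours in 1 gene cluster, Vsig4 (chrX:96293439-96293688) as a window with a pair of matches, and Clec4f (chr6:83656117-83656366) as one with no match of GAGGAA, though it holds TGCTGA. All 4 genes lie on the minus strand, the sequences read 5′ to 3′ towards the start, and capitals mark GAGGAA or TTCCTC.
C1qb: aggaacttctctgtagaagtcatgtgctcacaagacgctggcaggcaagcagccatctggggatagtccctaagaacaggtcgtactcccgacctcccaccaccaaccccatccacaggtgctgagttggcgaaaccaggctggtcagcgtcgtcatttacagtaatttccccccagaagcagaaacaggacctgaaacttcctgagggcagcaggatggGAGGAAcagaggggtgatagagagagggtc
C1qc: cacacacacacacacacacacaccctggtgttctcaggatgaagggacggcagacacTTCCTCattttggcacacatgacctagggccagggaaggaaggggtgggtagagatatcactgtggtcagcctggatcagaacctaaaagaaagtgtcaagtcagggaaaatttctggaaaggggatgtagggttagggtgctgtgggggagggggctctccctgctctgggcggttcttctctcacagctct
Vsig4: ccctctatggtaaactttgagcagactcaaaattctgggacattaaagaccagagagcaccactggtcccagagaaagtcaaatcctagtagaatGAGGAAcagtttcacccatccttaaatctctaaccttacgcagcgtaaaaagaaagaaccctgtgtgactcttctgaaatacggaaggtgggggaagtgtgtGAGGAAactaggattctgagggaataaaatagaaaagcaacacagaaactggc
Clec4f: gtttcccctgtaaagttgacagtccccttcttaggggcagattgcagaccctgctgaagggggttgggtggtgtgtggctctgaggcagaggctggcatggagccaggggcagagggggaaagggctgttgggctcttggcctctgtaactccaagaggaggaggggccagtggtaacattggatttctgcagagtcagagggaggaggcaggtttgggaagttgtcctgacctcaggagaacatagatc
The match of C1qb began 30 bases before the start and that of C1qc 193 bases before it, while those of Vsig4 began 155 and 53 bases before it. Fcna had 3 matches, the nearest 163 bases before the start, and Cd5l had 1 match, 66 bases before it. These distances are to the start that each window was built on, which need not be the end of the gene as deposited. The window of Fcna (25627975 to 25628224) lies inside the deposited span of the gene (25624666 to 25635444). That of C1qb begins at 136886201, beyond the deposited end of the gene at 136886177.

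Per length, the C1q chains were the most abundant of the markers. In FPKM, fragments per kilobase of transcript scaled to library size, the level of C1qb averaged 56.7 ± 3.52 in knockout-labelled and 49.6 ± 3.62 in wild type libraries (SD, n = 3 each). C1qc averaged 48.4 ± 3.38 and C1qa 46.1 ± 2.19 FPKM in knockout-labelled libraries, against 42.9 ± 5.06 and 44.7 ± 10.1 FPKM in wild type libraries (SD, n = 3 each), so these neighbours in the order did not differ beyond their spread. Over all 6 libraries the means went on with Cd5l at 39.7, Fcna at 28.1, Clec4f at 24.6 and Vsig4 at 16.1 FPKM. Csf1r and Folr2 stood at 8.91 and 8.89 FPKM, a difference far within their spread, and Timd4 was lowest at 2.60 FPKM. The highest marker was 20.4 times as abundant as the lowest.

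In CPM and in FPKM, every one of the 10 markers had a higher mean in the knockout-labelled than in the wild type libraries, by small amounts. In TPM (the length-scaled transcript share) this did not hold for C1qa, which averaged 61.1 in knockout-labelled and 61.3 in wild type libraries. The ratio of levels in the edgeR fit ran from 1.10 for C1qa to 1.39 for Folr2. The log2 fold changes had a median of 0.29, beside a median of -0.00 over all 12033 genes tested. None of the 10 passed an adjusted p of 0.05 in the quasi-likelihood test of edgeR, with adjustment by Benjamini and Hochberg over all genes (0 genes, adjusted p 0.739 to 0.988), where 0.00831% of all genes passed. At an unadjusted p under 0.05, 7 of the 10 were higher and 0 lower, beside 2.95% of all genes that were higher and 2.2% that were lower at this level (5.15% in either direction). The markers were chosen with earlier results of these data known and share the same libraries, so no test over the list was made. The count of 7 was 3 with library totals as scaling, 2 as log2(TPM + 1) and 3 without knockout-labelled replicate 2. The share of all genes that were higher at this level was then 1.25%, 0.939% and 1.94%. In DESeq2 the adjusted threshold was passed by 0 markers and the unadjusted one by 6, and in limma-voom by 0 and 7. At the unadjusted threshold 2.43% of all genes were higher in DESeq2 and 3.01% in limma-voom. Of all genes, DESeq2 called 0.233% and limma-voom 0.00831%. A positive value was found in 49.5% of all genes tested. The authors' deposited table gives q-values of 0.352 for Clec4f, 0.439 for Csf1r and 0.999 for the other 8 markers.

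**Figure D1:**
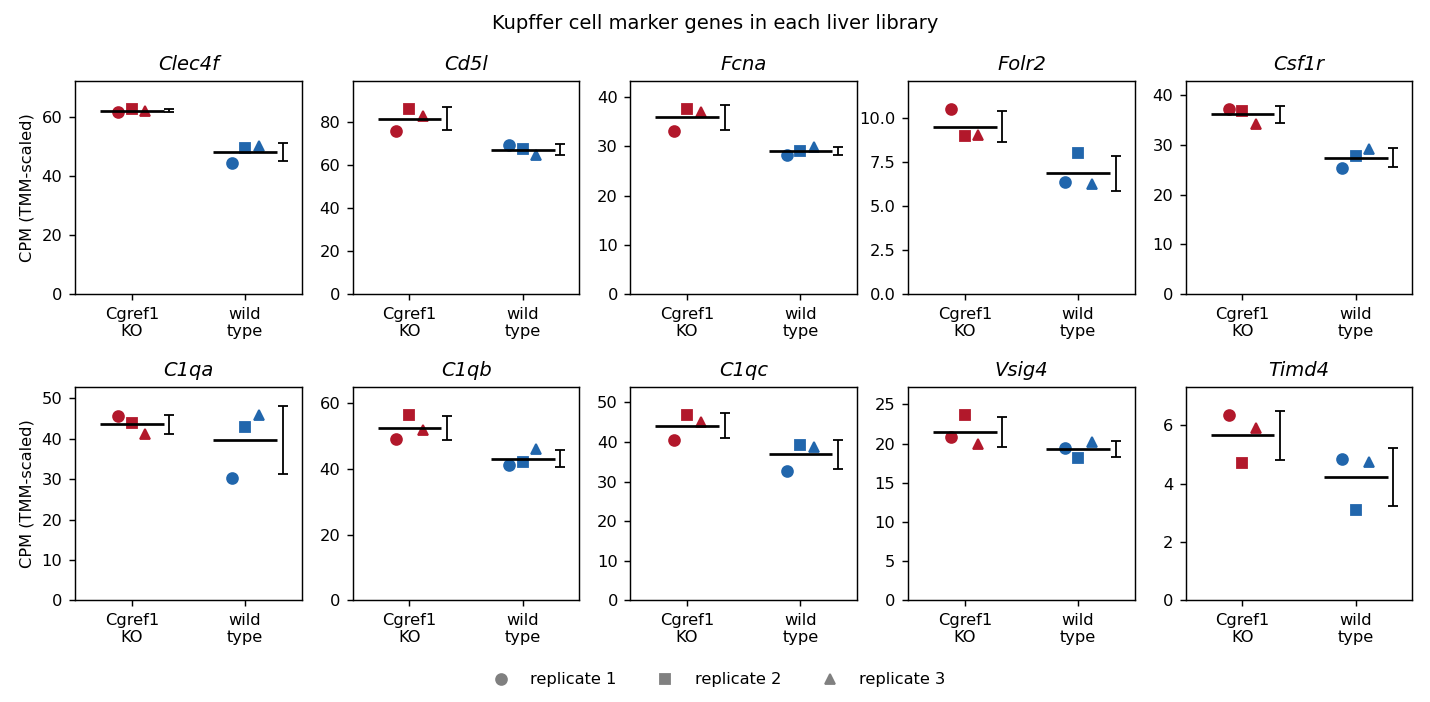
TMM-scaled CPM of each marker gene in the 3 knockout-labelled (left) and 3 wild type (right) libraries; lines are group means, bars beside them ± 1 SD, and the symbol gives the replicate number. For 7 of the 10 genes every knockout-labelled library lies above every wild type library, while C1qa, Vsig4 and Timd4 overlap.

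The groups did not overlap in CPM for 7 of the 10 markers, with each knockout-labelled library above each wild type library. Of all genes tested, 6.19% did so in this direction, 4.63% in the other and 10.8% in either. In the deposited values per length, 5 markers were without overlap in FPKM (2.18% of all genes) and 4 in TPM, the length-scaled transcript share (1.44%).

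The lectins and scavenger proteins come first by role. Clec4f, on chromosome 6 (83644542 to 83656116, GRCm38, minus strand), encodes a C-type lectin found in mice almost only on Kupffer cells. It stood at 61.8, 62.8 and 62.0 CPM in knockout-labelled livers and at 44.5, 49.5 and 50.3 CPM in wild type livers. All knockout-labelled libraries were high and close together, all wild type libraries lower, and the groups did not overlap. The log2 fold change was 0.37 (SE 0.09, 95% confidence interval 0.17 to 0.57) with an edgeR adjusted p of 0.739. The coefficient of variation of Clec4f over the knockout-labelled libraries was 0.813%, while counting error alone gives 3.03% at this depth, so the SD of that group understates the error. In wild type libraries it was 6.47%, with 3.36% from counting.

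Cd5l, on chromosome 3 (87357881 to 87371074), encodes AIM, a secreted protein with scavenger receptor domains that supports macrophage survival and circulates with IgM. Its values were 75.9, 86.3 and 83.1 CPM in knockout-labelled livers and 69.6, 67.6 and 64.6 CPM in wild type livers. Knockout-labelled replicate 1 lay nearest to the wild type range, but above it. The log2 fold change was 0.28 (SE 0.09, interval 0.08 to 0.48, edgeR adjusted p 0.874). Fcna, on chromosome 2 (25624666 to 25635444), encodes ficolin A, a collagen-stalked lectin that binds microbial sugars and starts the lectin pathway of complement. It had 33.1, 37.6 and 36.9 CPM in knockout-labelled livers, against 28.1, 29.1 and 29.9 CPM in wild type livers. As with Cd5l, the groups were separate and knockout-labelled replicate 1 was the lowest of its group. The log2 fold change of Fcna was 0.30 (SE 0.10, edgeR adjusted p 0.874).

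Among the receptors for growth factor and vitamin, Csf1r encodes the tyrosine kinase receptor of the ligands CSF1 and IL-34, on which Kupffer cell survival depends. It stood at 37.2, 36.8 and 34.2 CPM in knockout-labelled livers and at 25.3, 27.7 and 29.1 CPM in wild type livers. The groups did not overlap, and the gap between them was 5.13 CPM. Its log2 fold change was 0.40 (SE 0.10, interval 0.17 to 0.62, edgeR adjusted p 0.739). Folr2, on chromosome 7 (101839988 to 101857190), encodes folate receptor beta, a surface protein of resident macrophages. It had 10.5, 8.95 and 9.03 CPM in knockout-labelled livers and 6.35, 7.97 and 6.22 CPM in wild type livers. Wild type replicate 2 lay closest to the knockout-labelled range, below it by 0.98 CPM. Folr2 had the largest log2 fold change of the 10 markers, 0.47, with a wide error (SE 0.16, interval 0.11 to 0.83, edgeR adjusted p 0.903), and 0.24 without wild type replicates 1 and 3.

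C1qa, C1qb and C1qc encode the A, B and C chains that join into the collagen-like stalks and globular heads of C1q. The genes lie in tandem on the minus strand of chromosome 4 within 18700 bases (136880145 to 136898844). C1qb had 49.1, 56.4 and 51.7 CPM in knockout-labelled livers and 41.2, 42.2 and 46.1 CPM in wild type livers, without overlap (log2 fold change 0.28, SE 0.10, edgeR adjusted p 0.903). C1qc had 40.6, 46.8 and 45.1 CPM in knockout-labelled livers and 32.7, 39.3 and 38.8 CPM in wild type livers. These groups were separated by 1.31 CPM only, with a log2 fold change of 0.26 (SE 0.11, edgeR adjusted p 0.940), and 0.16 without wild type replicates 1 and 3.

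The values of C1qa overlapped between the groups. C1qa had 45.7, 43.9 and 41.1 CPM in knockout-labelled livers and 30.2, 43.0 and 45.9 CPM in wild type livers. Wild type replicate 1 was far below all others, while wild type replicate 3 was the highest of the 6. The log2 fold change of C1qa was 0.13 (SE 0.15, interval -0.20 to 0.47, edgeR adjusted p 0.988), and 0.25 without wild type replicate 3. Without wild type replicate 1 it was -0.04, while C1qb had 0.24 and C1qc 0.17. As a ratio of FPKM, C1qa to C1qb was 0.911, 0.762 and 0.777 in knockout-labelled libraries and 0.718, 0.997 and 0.974 in wild type libraries. Thus 1 wild type library had the lowest and the other 2 the highest ratios. The C1qc to C1qb ratio spread less, with 0.836, 0.839 and 0.882 in knockout-labelled and 0.803, 0.941 and 0.850 in wild type libraries. The summed FPKM of the 3 chains was 146, 157 and 151 in knockout-labelled libraries and 116, 144 and 151 in wild type libraries.

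The uptake receptors had overlapping groups. Vsig4, on chromosome X (96247203 to 96293438), encodes CRIg, the receptor by which Kupffer cells catch particles coated with complement C3 fragments. It had 20.9, 23.7 and 19.9 CPM in knockout-labelled livers and 19.5, 18.2 and 20.2 CPM in wild type livers. The groups overlapped, with knockout-labelled replicate 3 below wild type replicate 3, and the log2 fold change was 0.15 (SE 0.11, interval -0.10 to 0.41, edgeR adjusted p 0.984). It was 0.082 without knockout-labelled replicate 2, 0.072 with library totals as scaling, 0.065 as log2(FPKM + 1) and 0.015 as log2(TPM + 1). Timd4, on chromosome 11 (46810786 to 46844333), encodes TIM-4, a receptor for phosphatidylserine on dying cells. It had 6.35, 4.71 and 5.89 CPM in knockout-labelled livers and 4.86, 3.08 and 4.75 CPM in wild type livers. The groups overlapped, since knockout-labelled replicate 2 was below wild type replicates 1 and 3. The log2 fold change was 0.42 (SE 0.22, interval -0.08 to 0.92, edgeR adjusted p 0.973). It was 0.24 without wild type replicate 2, which held the lowest value, and 0.86 without wild type replicates 1 and 3. With 58 to 109 counts per library, counting error alone gives a coefficient of variation of 10.1% in the knockout-labelled and 11.3% in the wild type group, where 15.0% and 23.5% were seen.

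**Figure D2:**
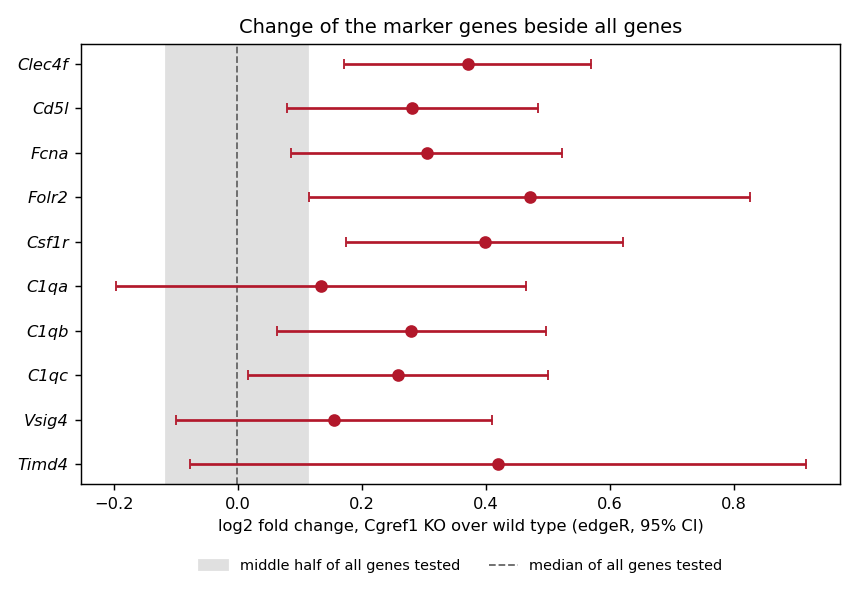
Log2 fold change of each marker gene, Cgref1 KO over wild type, with its 95% confidence interval from edgeR (n = 3 libraries a group); the grey band spans the quartiles of all 12033 genes tested (-0.12 to 0.11) and the dashed line is their median. All 10 points lie to the right of the band's upper edge, and the intervals of C1qa, Vsig4 and Timd4 include 0.

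Across the markers the log2 fold changes ran from 0.13 to 0.47, with an SD over the 10 genes of 0.11, while the SE of a single gene had a median of 0.10. The genes were measured in the same 6 libraries, so the SD between genes and the SE of a gene do not measure the same error. Whether the members differed from each other in size of change was not tested. Timd4 and Folr2, the members with the fewest counts, had the widest errors. The interval lay above 0 for 7 genes and included 0 for 3.

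By library, the centred log2 CPM (each gene's value minus its own mean over the 6 libraries), averaged over the 10 markers, was 0.15, 0.18 and 0.14 in knockout-labelled replicates 1, 2 and 3. It was -0.22, -0.15 and -0.09 in wild type replicates 1, 2 and 3. The knockout-labelled libraries were close to each other, and the wild type libraries were spread more widely. Of the 10 markers, 10, 9 and 8 were above their own mean in knockout-labelled replicates 1, 2 and 3, and 1 was so in each wild type library. Knockout-labelled replicate 2 held the highest value of 6 markers, knockout-labelled replicate 1 of 3 and wild type replicate 3 of 1, which was C1qa. The lowest value was found in wild type replicate 1 for 6 markers and in wild type replicates 2 and 3 for 2 markers each.

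**Figure D3:**
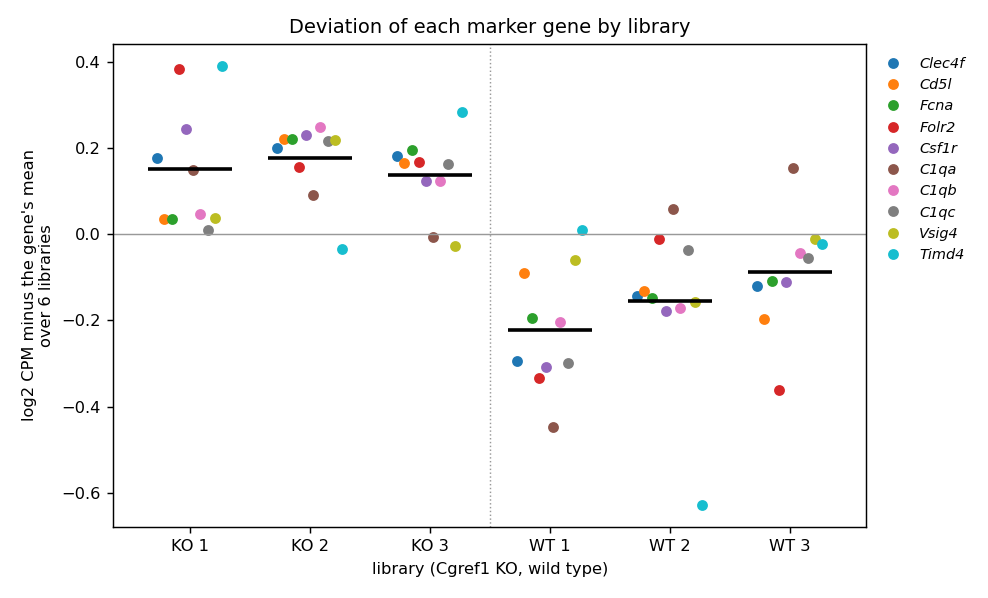
Centred log2 CPM of the 10 marker genes in each library, 3 knockout-labelled (KO) on the left and 3 wild type (WT) on the right; each point is a gene and the black line is the mean of the 10. The means are 0.15, 0.18 and 0.14 in KO libraries and -0.22, -0.15 and -0.09 in WT libraries, and the lowest point is Timd4 in wild type replicate 2.

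Other markers of Kupffer cells, from a list of 12, had log2 fold changes with a median of 0.27, of which 9 were positive and 3 negative. At an unadjusted edgeR p under 0.05, 2.95% of all genes were higher and 2.2% lower, the shares to set beside this list and those that follow. None of the 12 passed the adjusted edgeR threshold (0 genes), and 2 were higher at the unadjusted one. They were Adgre1, which encodes the macrophage antigen F4/80 (0.33, SE 0.13), and C6, a terminal complement gene at 219 ± 40.8 CPM in knockout-labelled and 129 ± 34.8 CPM in wild type livers (0.76, SE 0.22; SD, n = 3 each). C6 is made by hepatocytes too. The scavenger receptor genes Cd163 and Marco had log2 fold changes of 0.45 (SE 0.21) and 0.54 (SE 0.25). The 3 negative values were those of Slc40a1, the iron exporter ferroportin (-0.24, SE 0.15, but -0.095 without knockout-labelled replicate 3 and -0.14 without wild type replicate 2), Clec1b, a lectin gene (-0.17, SE 0.15), and Kcna2, a potassium channel gene (-0.04, SE 0.28). Hmox1, which encodes haem oxygenase, had 0.10 (SE 0.15), but -0.01 as log2(TPM + 1), -0.04 without wild type replicate 1 and -0.21 without wild type replicates 1 and 3. Adgre1, Cd163, Marco, Clec1b and Kcna2 were named after their values were seen.

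Genes of regulators of Kupffer cell identity, a list of 10, had 7 positive and 3 negative values with a median of 0.12, and 0 passed in edgeR, with 0 also at an unadjusted p under 0.05. Nr1h3, which encodes the oxysterol receptor LXR alpha, stood at 111 ± 6.42 CPM in knockout-labelled and 98.6 ± 7.75 CPM in wild type livers (SD, n = 3 each; log2 fold change 0.17, SE 0.10, and 0.032 as log2(TPM + 1)). Its partner gene Rxra had 0.13 (SE 0.10), with 0.058 without wild type replicate 1, 0.20 without wild type replicate 2 and -0.01 without wild type replicates 1 and 3. Id3, a factor gene of Kupffer cell development, had -0.11 with an SE of 0.39, and was positive without wild type replicate 2 (0.41) or knockout-labelled replicate 3 (0.04). Hepatocytes and endothelial cells express these 3 genes as well. Spi1 itself, named as the factor of the promoter motif, stood at 5.87 CPM in knockout-labelled and 4.91 CPM in wild type livers on average (0.26, SE 0.20).

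For the signals of the Kupffer cell niche, 7 of 8 genes were tested, with 4 positive and 3 negative values and a median of 0.16, and 0 passed in edgeR at the adjusted or the unadjusted threshold. The CSF1R ligand genes Csf1 and Il34 had log2 fold changes of 0.31 (SE 0.24) and 0.36 (SE 0.35), and the Notch ligand genes Dll1 and Dll4 had -0.59 (SE 0.31) and -0.36 (SE 0.28); these 4 were named after their values were seen. The 3 most abundant genes of the list, Gdf2 (BMP9), Tgfb1 and Bmp2, had 0.18 (SE 0.21), 0.16 (SE 0.16) and -0.09 (SE 0.15). Bmp2 turned to 0.04 without wild type replicate 3, and Gdf2 to -0.00 without wild type replicate 1. Tgfb1 had 0.0075 without wild type replicate 1 and 0.29 without wild type replicate 3.

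The complement proteins that act with C1q, ficolin A and CRIg are made mostly by hepatocytes. Of 14 listed genes 12 were tested, 5 positive and 7 negative, with a median of -0.02. None passed in edgeR (0 genes), and C2 alone was higher at an unadjusted p under 0.05 (0.48, SE 0.13, adjusted p 0.754). C3, whose fragments CRIg binds, had -0.05 (SE 0.14, and 0.07 without knockout-labelled replicate 3). Serping1, the gene of the C1 inhibitor, had 0.11 (SE 0.12, with 0.025 without knockout-labelled replicate 1, 0.047 without wild type replicate 1, 0.18 without either knockout-labelled replicate 3 or wild type replicate 2, and -0.03 both as log2(TPM + 1) and without wild type replicates 1 and 3). Mbl2, a mannose-binding lectin gene, had -0.32 (SE 0.15, and -0.18 without knockout-labelled replicate 3). The proteases of the C1 complex, C1ra and C1s1, had 0.12 (SE 0.11) and -0.02 (SE 0.09), beside 0.28 and 0.26 for C1qb and C1qc. A difference between these sets of genes was not tested.

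For the uptake of dying cells, in which TIM-4 takes part, 11 of 12 genes were tested, 7 positive and 4 negative with a median of 0.13. In edgeR 0 passed after adjustment, and 3 were higher at an unadjusted p under 0.05. These were Scarb1, the HDL receptor gene, at 165 CPM in knockout-labelled and 130.4 CPM in wild type livers (0.34, SE 0.10), Pros1, the gene of the bridging ligand protein S, and the receptor kinase gene Axl (0.34, SE 0.14). Pros1 stood at 64.5 ± 3.64 CPM in knockout-labelled and 53.7 ± 2.36 CPM in wild type livers (SD, n = 3 each). Scarb1 and Pros1 are also strongly expressed by hepatocytes. The lipid scavenger receptor gene Cd36 had -0.84 with an SE of 0.50, and -0.47 without wild type replicate 1 or -0.52 without knockout-labelled replicate 3.

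Genes shared by macrophages and other leukocytes, a list of 15, had 14 positive values and 1 negative, with a median of 0.21. None passed after adjustment in edgeR (0 genes), and 3 were higher at an unadjusted p under 0.05. Lyz2, the lysozyme gene of macrophages, stood at 55.3 ± 2.96 CPM in knockout-labelled and 44.4 ± 3.65 CPM in wild type livers (SD, n = 3 each; log2 fold change 0.32, SE 0.10). Cybb, a subunit gene of the phagocyte oxidase, and Laptm5, a lysosomal membrane gene of leukocytes, were the other two, with 0.33 (SE 0.13) and 0.29 (SE 0.13). Lcp1 was the negative one, with -0.06 (SE 0.12, and 0.02 without either knockout-labelled replicate 3 or wild type replicate 1), and Lgmn, a lysosomal protease gene, had 0.12 (SE 0.09, and -0.01 as log2(TPM + 1)).

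Markers of monocyte-derived macrophages were at low levels and did not lie to the same side. The 11 genes summed to 28.2, 24.9 and 23.9 CPM in knockout-labelled libraries and to 31.0, 29.4 and 28.8 CPM in wild type libraries. Of 6 genes tested 2 were positive and 4 negative, with a median of -0.11, and 0 passed in edgeR, while Cd9 was lower at an unadjusted p under 0.05 (-0.43, SE 0.15, adjusted p 0.903). Plac8 had -0.33 (SE 0.22), with -0.088 without wild type replicate 1 and -0.50 without wild type replicate 3. Clec7a, a beta-glucan receptor gene, had 0.05 (SE 0.19) and changed sign under 8 of 19 alternatives. Ly6c2 and Ccr2, which define inflammatory monocytes, averaged 0.666 and 0.818 CPM in knockout-labelled and 0.688 and 0.705 CPM in wild type livers. They were near the limit of detection in both groups.

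The other cell type lists give the frame in which these values stand. Stellate cell genes had 3 positive and 12 negative values (median -0.25) and summed to 354 to 409.9 CPM in knockout-labelled and 407 to 529.5 CPM in wild type libraries. Hepatocyte, sinusoidal endothelial and cholangiocyte genes had medians of 0.04, 0.02 and 0.06. The median was 0.36 for the 7 tested T and NK cell genes (5 positive and 2 negative). It was also 0.36 for the 2 tested dendritic cell genes, both positive. Pancreatic genes had a median of 0.49, neutrophil genes -0.03 and B and plasma cell genes -0.22. Erythroid and intestinal genes had medians of -0.18 and -0.64. Neutrophil genes summed to 2.56 to 3.96 CPM in knockout-labelled and 2.07 to 4.41 CPM in wild type libraries. T and NK cell genes summed to 8.37 to 9.50 CPM in knockout-labelled and 6.40 to 8.95 CPM in wild type libraries, B and plasma cell genes to 8.15 to 13.99 CPM in knockout-labelled and 9.44 to 11.9 CPM in wild type libraries, and dendritic cell genes to 5.36 to 6.92 CPM in knockout-labelled and 4.53 to 5.51 CPM in wild type libraries. No gene of these lists was at 0 in every library (0 genes), and 8 of the 11 neutrophil genes had no count in at least 1 library. Erythroid genes summed to 1757 to 2752 CPM in knockout-labelled and 2105 to 3514 CPM in wild type libraries. Intestinal genes, mostly Fabp2, summed to 75.7, 82.8 and 62.0 CPM in knockout-labelled and 131, 76.1 and 130.5 CPM in wild type libraries. Of these sums, Fabp2 held 73.4, 81.4 and 60.5 CPM in knockout-labelled and 121.6, 73.2 and 115.4 CPM in wild type libraries. Lgals4 held 2.27, 1.39 and 1.32 CPM in knockout-labelled and 1.82, 2.497 and 4.09 CPM in wild type libraries. The rest came from 13 genes, each with no count in at least 1 library. It lay mostly in wild type replicates 1 and 3, so it was uneven between the groups. Pancreatic genes summed to 25.8 to 27.5 CPM in knockout-labelled and 15.8 to 27.5 CPM in wild type libraries. The part of these markers in the Kupffer cell values was not tested. Without wild type replicates 1 and 3, which held the most intestinal counts, 1 wild type library is left and is assumed to vary like the others; the median of the 10 Kupffer markers was then 0.28, and 3 of them had an unadjusted edgeR p under 0.05.

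**Figure D4:**
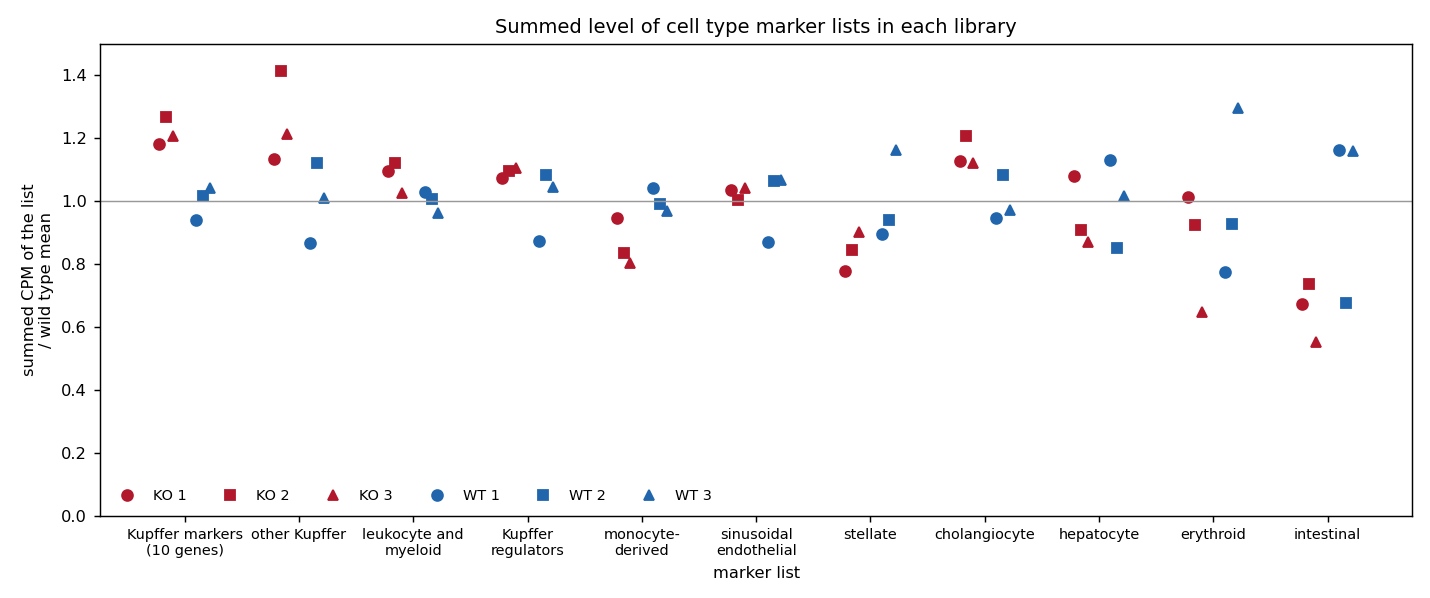
Summed CPM of each marker list in every library, divided by the wild type mean of that list; knockout-labelled libraries (KO) stand left of wild type libraries (WT) in each list. The KO libraries lie above all WT libraries for the 10 Kupffer markers and the cholangiocyte list and also for the other Kupffer list, they lie below all WT libraries for the monocyte-derived list, and the groups overlap for the hepatocyte and endothelial lists. The other Kupffer list averaged 411 CPM in KO and 328 CPM in WT libraries. C6 alone, which hepatocytes also make, held 219 and 129 CPM of these sums, and Slc40a1 held 103 and 121 CPM.

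The genes whose pattern was most like that of the 10 markers were found among the other genes with a mean of at least 5 CPM. Likeness was the root mean square difference in centred log2 CPM from the mean of the markers over the 6 libraries. The 5 nearest were Lyz2 (0.045), Marc2 (0.047), Pros1 (0.048), Cybc1 (0.049) and St3gal3 (0.049). The markers themselves differed from their own mean by 0.040 for Clec4f up to 0.260 for Timd4. Lyz2 is itself a macrophage gene and Cybc1 encodes a chaperone of the phagocyte oxidase, while Marc2, a mitochondrial reductase gene, and St3gal3, a sialyltransferase gene, are not macrophage markers. Marc2 stood at 367 ± 5.72 CPM in knockout-labelled and 303 ± 19.8 CPM in wild type livers (SD, n = 3 each).

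The markers' median was smaller under some of the other ways of processing, which change the scaling, the unit or the test. With library totals as the only scaling, the median of all genes was -0.08 and that of the markers 0.21, and with log2(TPM + 1) they were -0.11 and 0.15. With log2(TPM + 1), the values of 8 of the 10 markers, all but Folr2 and Timd4, were smaller by over 1.5 times. Relative to the median of all genes, the markers' median was 0.29 in the TMM-scaled edgeR fit and between 0.26 and 0.33 under the 19 alternatives. All tested markers lay above the median of all genes in 18 of the 19 alternatives, the exception being C1qa without wild type replicate 1. In none of the 19 did a marker pass an adjusted p of 0.05 (0 genes), and the smallest adjusted p was 0.181, in edgeR with the replicate number as a block.

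**Figure D5:**
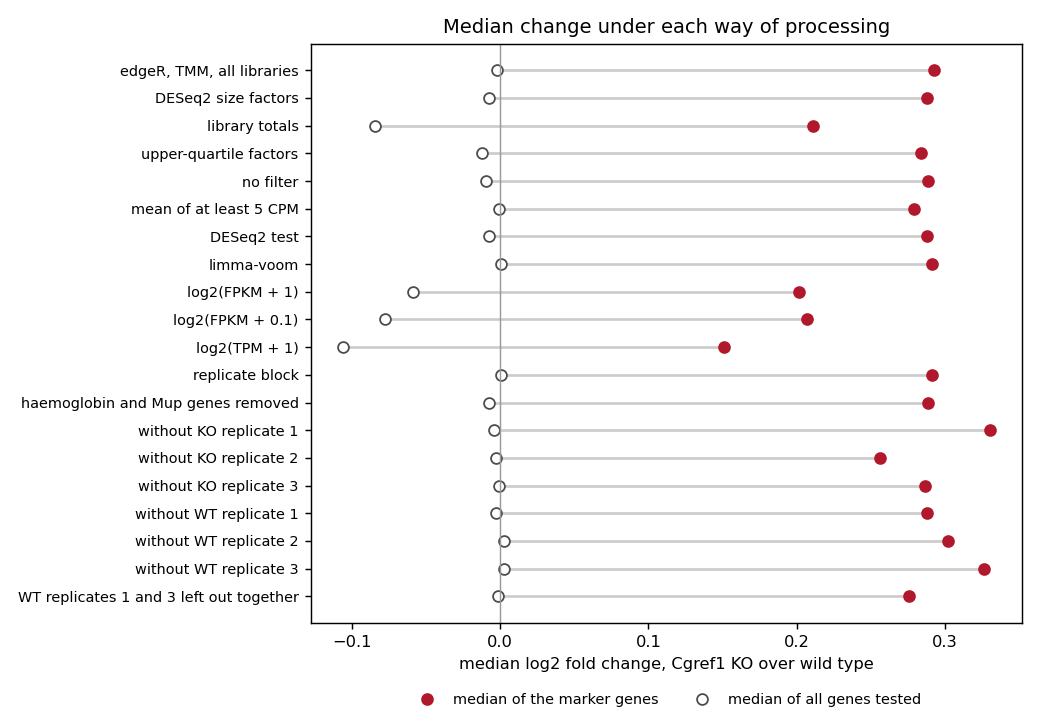
Median log2 fold change, Cgref1 KO over wild type, of the 10 marker genes (filled, 9 genes at the filter of 5 CPM) and of all genes tested (open) under each way of processing. The markers' median lies between 0.15 and 0.33, and its distance to the median of all genes between 0.26 and 0.33.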

How the data were processed

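Liver RNA of 3 Cgref1 KO and 3 wild type mice was enriched for messenger RNA and sequenced after bubble adaptor ligation, per the labels' protocols. The submitters' processing notes name HISAT, Bowtie2, RSEM and DESeq2 with no versions. Whether counting used strand is not given in these sources. The authors deposited expected counts (92.3% to 92.9% of values whole within 1e-06), FPKM values and TPM values per gene and library, and a log2 fold change with p-values and q-values from DESeq2, all per the file headers. The 6 columns of group means and 9 columns comparing single libraries were not used. Chromosome accessions in the table are those of GRCm38.

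Expected counts were rounded, filtered by filterByExpr (minimum count 10; 12033 genes kept, all 10 markers among them) and scaled by TMM (factors 0.955 to 1.05). edgeR 4.0.16 in R 4.3.3 compared the groups (robust quasi-likelihood fit, no block), with adjusted p-values over all genes and a threshold of 0.05; intervals are at 95%. CPM use the TMM-scaled totals. FPKM served to compare levels between genes. Overlapping or near-identical genes could share reads; the counting settings are not known. Libraries within a group differed far beyond counting noise (chi-square per degree of freedom 16.4 to 80.9), so none was counted as a duplicate. The fit was tested on simulated data with 11931 genes. At the adjusted threshold it recovered 20.4% of the genes changed 1.5-fold and 74% of those changed 2-fold, with 12 false calls. The ratios of the markers, 1.10 to 1.39, lay below 1.5, the smallest fold simulated. Few genes with changes of that size would thus be expected to pass.

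The markers and the other gene lists were chosen with earlier results of these data known, so no test over a list was made, and lists are described by counts and medians. Named genes are Cgref1, the markers, up to 3 tested genes with the highest mean FPKM in each Kupffer-related list, and the 5 genes most like the markers; others were named after their values were seen (those past an unadjusted p of 0.05, and Cd163, Marco, Clec1b, Kcna2, Csf1, Il34, Dll1 and Dll4) or for their role (Spi1, C1ra, C1s1, Ly6c2, Ccr2). Alternatives were other scalings, filters, DESeq2 1.42.0, limma 3.58.1 on counts, FPKM or TPM, a replicate block, leaving out 27 genes of haemoglobins and Mup proteins, and libraries left out.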

Additional observations from a re-analysis of the deposited data

How the results depend on the processing

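The number of markers past the adjusted threshold was 0 under all 19 alternatives, and 9 or 10 had positive values. The number at an unadjusted p under 0.05 was 7 in the edgeR fit, where 2.95% of all genes were higher at this level. It was 3 with library totals (1.25% of all genes), 4 with log2(FPKM + 1) (1.40%), 4 with log2(FPKM + 0.1) (1.40%) and 2 with log2(TPM + 1) (0.939%). Without 1 library it was 3 to 7 (1.72% to 3.36% of all genes), the 3 being without knockout-labelled replicate 2 (1.94%). The median of the markers, 0.29, was 0.21 with library totals, 0.20 with log2(FPKM + 1), 0.21 with log2(FPKM + 0.1), 0.15 with log2(TPM + 1), and 0.26 to 0.33 without 1 library. Of all genes, edgeR called 1; it was 0 at a mean of at least 5 CPM (Timd4 then drops out) and without wild type replicates 1 and 3, 28 in DESeq2, and 1 to 5 without 1 library, the 5 being without knockout-labelled replicate 1. With the replicate number as a block it was 34, with 0 markers, 8 of them at an unadjusted p under 0.05, and a median of 0.29; C6 then passed (0.78, adjusted p 0.0115). Whether the numbers pair the livers is not stated: same-numbered libraries had correlations of deviations of 0.283, 0.06 and 0.348, each library matching its own number best, which is a hint from the data only. The causes of these shifts were not tested.

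C1qa was negative without wild type replicate 1 and ran from -0.035 to 0.25 without 1 library. Among the other named genes, Clec7a was -0.041 with library totals, -0.028 with log2(FPKM + 1), -0.035 with log2(FPKM + 0.1), -0.071 with log2(TPM + 1), -0.085 without wild type replicates 1 and 3, and -0.092 to 0.17 without 1 library. With log2(TPM + 1) Hmox1, Serping1 and Lgmn were -0.014, -0.030 and -0.015. Without wild type replicates 1 and 3 Hmox1, Rxra and Serping1 were -0.21, -0.0089 and -0.028. Without 1 library, Hmox1 ran from -0.036 to 0.28, Id3 from -0.37 to 0.41, Gdf2 from -0.0024 to 0.34, Bmp2 from -0.21 to 0.043, C3 from -0.20 to 0.067 and Lcp1 from -0.14 to 0.021. Timd4 and Folr2, at 58 to 180 counts per library, had the fewest counts and the widest errors of the markers.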
